A study of Mus musculus with 12 samples.

Results

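The 39 genes described here act in autophagy and in the lysosome, and they were chosen by name. A probe set stood for a gene when the array annotation gave that symbol and no other, and where a gene had several such probe sets the one with the highest mean over all arrays was taken. Of the 39 genes, 38 had a probe set, among 19937 genes and 28213 probe sets on the array. Optn, which encodes the mitophagy receptor optineurin, was not analysed here. All 38 genes passed the filter on dim probe sets, which kept 25989 probe sets when 3 groups were fitted and 26027 when all 4 were.

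Autophagy encloses part of the cytoplasm in a double membrane, the autophagosome, and delivers it to the lysosome for digestion. The ULK kinase complex starts the process, a class III PI3-kinase marks the membrane with PI3P, and ubiquitin-like conjugation systems attach proteins of the Atg8 family to it. In the liver autophagy is known to increase during fasting, and insulin is known to restrain it through mTORC1, which phosphorylates Atg13 and Ulk1, and through FoxO transcription factors.

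Livers were taken from C57BL/6 mice, 6 weeks old per the labels (the study's methods give a slightly different age, and females), 6 h after a subcutaneous injection of Albulin, Insulin-Apo or insulin glargine, each at 55 nmol/kg, or of saline. The mice were wild type, so all 4 groups made their own insulin. Albulin is insulin fused to albumin, Insulin-Apo carries a single-chain insulin ahead of human apolipoprotein A-I in the same protein, and insulin glargine is a long-acting insulin analogue without a fusion partner. Each group had 3 arrays of the Affymetrix Mouse Gene 1.0 ST type. The labels do not say that the arrays came from separate animals, so the p-values measure the spread between these arrays.

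The median log2 expression of the arrays lay between 7.70 and 7.77. The third insulin glargine array stood apart, with a mean correlation of 0.985 with arrays of other groups and a quality weight of 0.203, and the insulin glargine values that it moved most are given with and without it. The 8 hepatocyte markers were bright in every group, with means between 14.1 and 14.8, and none of them was called against saline. The 3 comparisons with saline share the saline arrays. The sources used here do not state whether the insulin glargine arrays were processed with the others, and such a batch cannot be told apart from that treatment.

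A gene is said to have risen or fallen when limma gave B, the log odds that it differed, over 0. By that rule 0 of the 38 genes fell and 2 rose after Albulin, 0 fell and 1 rose after Insulin-Apo, and 5 fell and 0 rose after insulin glargine. Among all probe sets 1.04% fell and 1.37% rose after Albulin, 0.804% fell and 1.34% rose after Insulin-Apo, and 2.60% fell and 2.24% rose after insulin glargine. At an unadjusted limma p under 0.05 there were 4 lower and 7 higher genes after Albulin, 5 lower and 4 higher after Insulin-Apo, and 12 lower and 1 higher after insulin glargine. No share of all probe sets is given here for any count at an unadjusted p, so those counts have no background beside them. The list had been put together as genes that insulin represses, and most of its members did not pass the test in that direction after any of the 3 insulins. The genes that fell after insulin glargine were Depp1, Nbr1, Gabarapl1, Atg14 and Atg5, and those that rose were Atg13 and Atg14 after Albulin and Atg13 after Insulin-Apo.

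**Figure D1:**
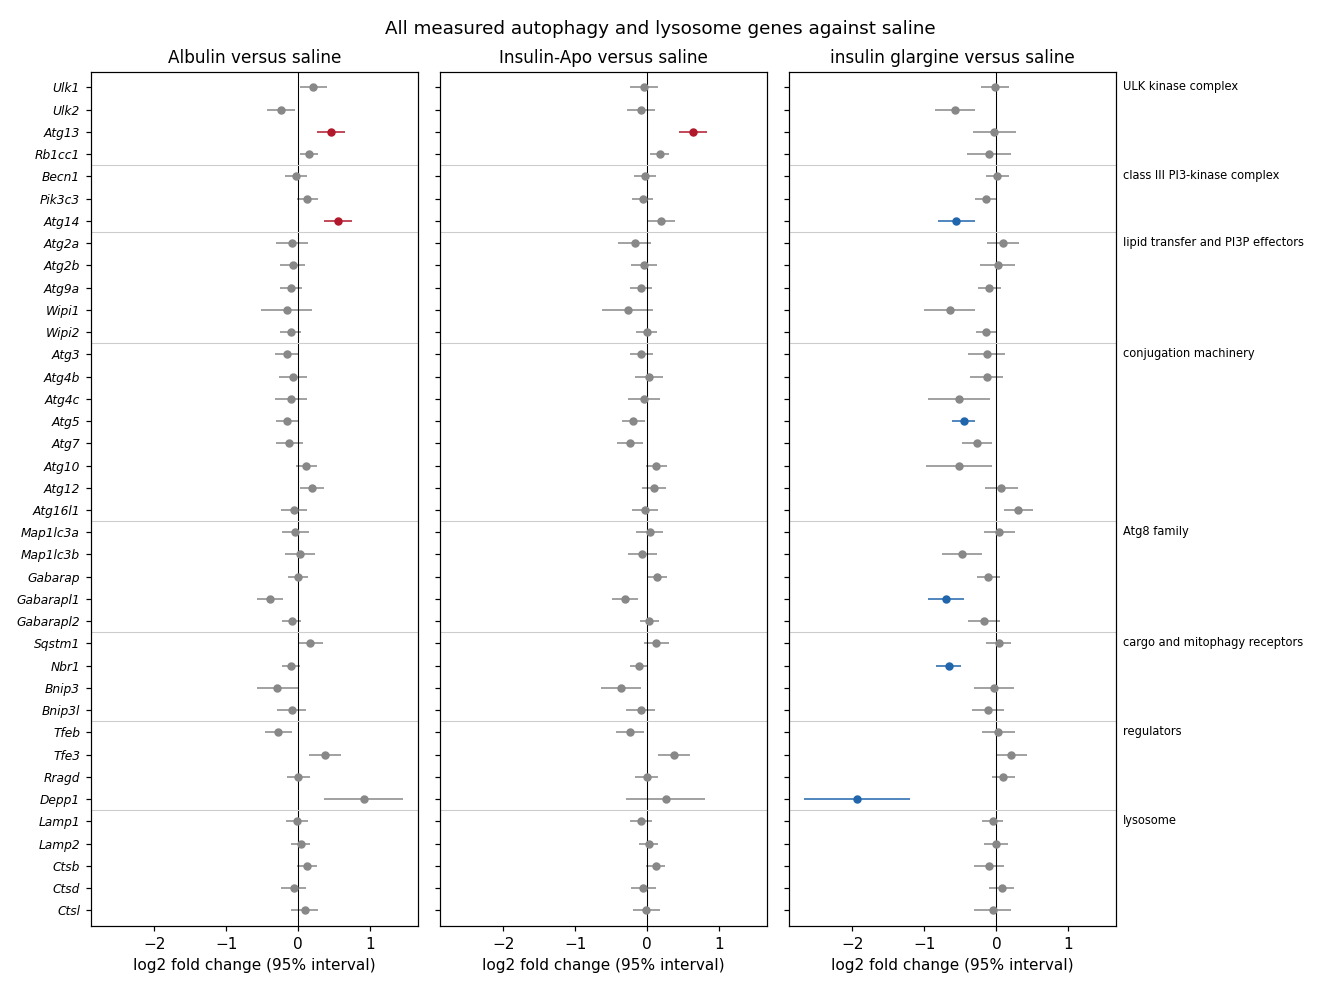
Log2 fold change against saline of the 38 measured genes, ordered by role, with 95% intervals from limma, for Albulin, Insulin-Apo and insulin glargine (n = 3 arrays per group). Blue points fell, red points rose and grey points were not called, and the 5 blue points all stand in the insulin glargine panel.

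The median log2 fold change of the 38 genes was -0.05 after Albulin, -0.04 after Insulin-Apo and -0.11 after insulin glargine, against 0.00, -0.02 and 0.00 over all probe sets. A negative sign was seen in 24, 24 and 27 of the 38 genes after Albulin, Insulin-Apo and insulin glargine, with no share of all probe sets beside these counts. When the third insulin glargine array was left out, the median after insulin glargine was -0.04. The sign was then negative in 22 of the 38 genes, fewer than the 24 after either fusion protein. With an adjusted p under 0.05 as the rule, 1 gene was lower and 2 were higher after Albulin, 0 were lower and 1 was higher after Insulin-Apo, and 8 were lower and 0 were higher after insulin glargine. The shares of all probe sets by that rule were 2.27% lower and 2.42% higher after Albulin, 1.55% lower and 2.18% higher after Insulin-Apo, and 5.86% lower and 5.08% higher after insulin glargine. The genes that this rule added were Gabarapl1 after Albulin, and Ulk2, Wipi1 and Map1lc3b after insulin glargine. Leaving out the third insulin glargine array gave 7 lower genes by that rule, since Wipi1 and Map1lc3b did not pass (limma adjusted p = 0.0628 and 0.0605) and Atg7, a conjugation enzyme, did (log2 fold change -0.36, limma adjusted p = 0.0216).

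Among the regulators, Depp1 had the widest change of the 38 genes. Depp1 is known as a gene that FoxO factors induce, and in human cell lines its protein modulates autophagy. Its probe set (10541071) read log2 values of 10.89, 10.13 and 9.95 after Albulin, 9.14, 10.05 and 9.82 after Insulin-Apo, 6.93, 8.33 and 7.18 after insulin glargine, and 9.56, 9.33 and 9.37 after saline. The insulin glargine arrays lay below all 9 other arrays, while those of Albulin lay above all 3 saline arrays and those of Insulin-Apo lay on both sides of them. Depp1 fell after insulin glargine, with a log2 fold change of -1.94 ± 0.34 (SE, limma adjusted p = 0.00311, n = 3 per group), a level 0.261 times that after saline. After Albulin the log2 fold change was 0.91 ± 0.25 (limma adjusted p = 0.0696), which was not called, and after Insulin-Apo it was 0.25 (limma adjusted p = 0.67). In whole liver, fewer cells of a type and less RNA per cell cannot be told apart. The call of Depp1 after insulin glargine was lost when the first saline, the first insulin glargine or the third insulin glargine array was left out, at log2 fold changes of -1.87, -1.66 and -1.79 and limma adjusted p-values of 0.0157, 0.0114 and 0.00893.

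**Figure D2:**
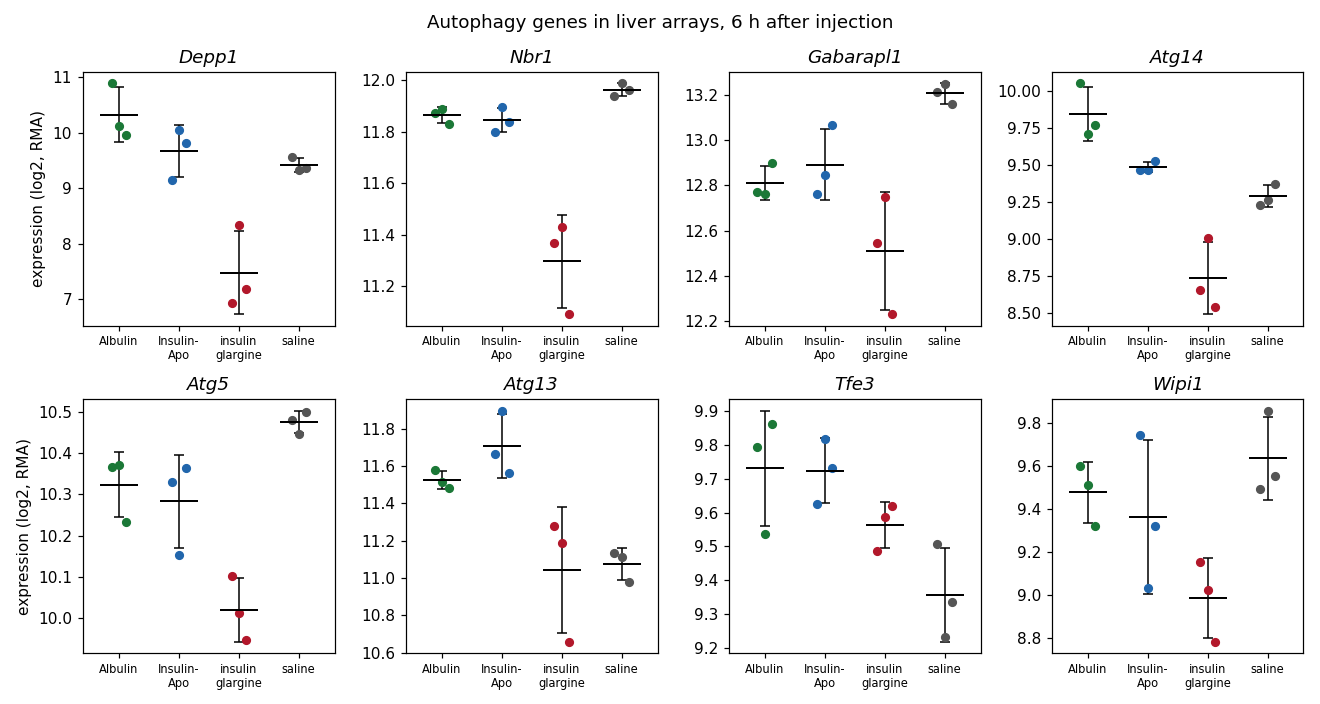
Log2 expression of 8 genes in each array, by treatment. Points are arrays, the horizontal line is the mean and the bar is the SD (n = 3), and each panel has its own axis. In Depp1, Nbr1, Gabarapl1, Atg14 and Atg5 every insulin glargine array lies below every saline array, and in Atg13 every Albulin and Insulin-Apo array lies above them.

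The transcription factors Tfeb and Tfe3, which switch on lysosome and autophagy genes, and the GTPase Rragd, which takes part in amino acid sensing at the lysosome, were not called in any comparison with saline. Tfe3 (10598409) was the uncalled gene farthest from saline after Insulin-Apo, at 9.79, 9.54 and 9.86 after Albulin, 9.63, 9.82 and 9.73 after Insulin-Apo, 9.49, 9.59 and 9.62 after insulin glargine, and 9.51, 9.23 and 9.34 after saline. All arrays of Albulin and Insulin-Apo lay above those of saline, and the insulin glargine arrays overlapped them. Its log2 fold change was 0.37 after both fusion proteins (limma adjusted p = 0.0622 after Albulin and 0.0715 after Insulin-Apo), and its paralogue Tfeb had log2 fold changes of -0.28 and -0.24 (limma adjusted p = 0.104 and 0.162).

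Within the ULK kinase complex, Atg13 was the member that rose. Atg13 is the subunit that joins the kinases Ulk1 and Ulk2 to the scaffold Rb1cc1. Its probe set (10485048) read 11.58, 11.51 and 11.48 after Albulin, 11.66, 11.90 and 11.56 after Insulin-Apo, 11.28, 11.19 and 10.66 after insulin glargine, and 11.13, 11.11 and 10.98 after saline. Every array of both fusion proteins was higher than every saline array, and the insulin glargine arrays lay on both sides of saline, the third far below. Atg13 rose by a log2 fold change of 0.45 ± 0.09 after Albulin (SE, limma adjusted p = 0.0166) and of 0.63 ± 0.09 after Insulin-Apo (limma adjusted p = 0.00453), which are levels 1.37 and 1.55 times those after saline. After insulin glargine its log2 fold change was -0.03, and without the third insulin glargine array it was 0.16 (limma adjusted p = 0.341). In a fit that also held the insulin glargine arrays, both calls were lost, with limma adjusted p-values of 0.128 after Albulin and 0.0408 after Insulin-Apo. The call after Albulin was also lost when any Albulin array, any saline array or the first Insulin-Apo array was left out, with limma adjusted p-values up to 0.0688, whereas the call after Insulin-Apo was kept in each of the 9 fits that left out an array of Albulin, Insulin-Apo or saline.

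The partners of Atg13 were not called against saline. Ulk1 had log2 fold changes of 0.21, -0.04 and -0.02 after Albulin, Insulin-Apo and insulin glargine, and Rb1cc1 had 0.15, 0.17 and -0.10, the last of which was 0.11 without the third insulin glargine array. Ulk2 read 9.52, 9.65 and 9.11 after insulin glargine, against values between 9.95 and 10.07 after saline. Its log2 fold change there was -0.58 ± 0.13 (limma adjusted p = 0.0108), all insulin glargine arrays lay below those of saline, and B stayed under 0. The value was -0.42 without the third insulin glargine array (limma adjusted p = 0.0160).

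Atg14 was the only gene called in opposite directions against saline. It is the subunit that directs the class III PI3-kinase to the site where autophagosomes form. That kinase complex also holds Pik3c3, Becn1 and Pik3r4. The probe set of Atg14 (10419343) read 10.05, 9.71 and 9.77 after Albulin, 9.46, 9.47 and 9.53 after Insulin-Apo, 8.66, 9.01 and 8.54 after insulin glargine, and 9.23, 9.27 and 9.38 after saline. The 4 groups did not overlap: Albulin was highest, Insulin-Apo came next, then saline, and insulin glargine was lowest. The log2 fold change was 0.55 ± 0.09 after Albulin (SE, limma adjusted p = 0.00666) and -0.56 ± 0.12 after insulin glargine (limma adjusted p = 0.00859), and both were called. After Insulin-Apo it was 0.19 (limma adjusted p = 0.288, 95% interval -0.00 to 0.39), which was not called. The fall after insulin glargine lay close to the threshold, with a B of 0.06. It lost its call when any array other than the first Albulin and the second insulin glargine array was left out, with limma adjusted p-values between 0.0112 and 0.0382, and without the third insulin glargine array its log2 fold change was -0.46 (limma adjusted p = 0.0214). In the same complex Pik3c3 had a log2 fold change of 0.13, -0.06 and -0.15 after Albulin, Insulin-Apo and insulin glargine, and Becn1 had -0.03, -0.03 and 0.01, and neither was called.

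The promoters of these genes were searched for GTAAACA, which FoxO factors bind, and for TCACGTG, the core of the element that TFEB and TFE3 bind, on both strands. RefSeq windows around the annotated start sites (GRCm38.p6) were at hand for 30 of the 38 genes. GTAAACA stood in 0 of the 30, against 4.05% of 27025 genes, and TCACGTG in 5 of the 30 (16.7%), against 4.29% of all genes. The 5 genes were Atg14, Atg3, Atg7, Ctsd and Lamp1, of which Atg14 was the only one called in a comparison with saline. The only window of Atg7 lies inside the annotated gene, downstream of its outermost start. Neither motif was found in the windows of Depp1, Nbr1, Gabarapl1, Atg5 and Atg13. The windows of Depp1 and Atg14 are shown since these genes changed, and those of Lamp1 and Ctsd as examples that hold the motif several times and did not pass the test. The window of Atg3, which is not shown, also held 3 matches, and Atg3 was not called. Capitals mark TCACGTG or its reverse complement CACGTGA, and a palindromic TCACGTGA was counted on both strands. A match describes the letters of the window and is not evidence of binding.
Depp1, chr6:116650434-116650733, plus strand: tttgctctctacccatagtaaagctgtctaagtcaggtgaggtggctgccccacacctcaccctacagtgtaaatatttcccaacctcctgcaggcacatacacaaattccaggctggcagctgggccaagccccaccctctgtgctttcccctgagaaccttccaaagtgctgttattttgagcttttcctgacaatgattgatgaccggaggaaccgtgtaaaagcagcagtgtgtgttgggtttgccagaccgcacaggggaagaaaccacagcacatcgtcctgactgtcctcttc
Atg14, chr14:47568385-47568684, minus strand: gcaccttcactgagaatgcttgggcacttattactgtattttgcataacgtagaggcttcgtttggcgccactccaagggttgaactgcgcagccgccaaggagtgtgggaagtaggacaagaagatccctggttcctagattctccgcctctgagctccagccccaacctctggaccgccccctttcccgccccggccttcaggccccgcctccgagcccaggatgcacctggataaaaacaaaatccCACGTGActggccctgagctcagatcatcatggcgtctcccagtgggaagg
Lamp1, chr8:13158911-13159210, plus strand: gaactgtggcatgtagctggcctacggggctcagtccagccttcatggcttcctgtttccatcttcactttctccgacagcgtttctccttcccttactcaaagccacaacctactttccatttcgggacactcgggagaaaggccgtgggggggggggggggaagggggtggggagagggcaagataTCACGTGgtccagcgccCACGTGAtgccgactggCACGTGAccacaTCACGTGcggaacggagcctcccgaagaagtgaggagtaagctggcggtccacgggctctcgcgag
Ctsd, chr7:142387778-142388077, minus strand: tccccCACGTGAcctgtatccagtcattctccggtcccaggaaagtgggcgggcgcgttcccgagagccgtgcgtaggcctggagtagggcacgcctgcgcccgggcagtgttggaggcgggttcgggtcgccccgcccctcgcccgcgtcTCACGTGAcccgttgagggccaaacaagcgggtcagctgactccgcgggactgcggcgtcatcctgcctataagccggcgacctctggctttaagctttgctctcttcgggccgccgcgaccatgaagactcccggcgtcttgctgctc

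The 5 measured genes whose proteins move lipid to the growing membrane or bind PI3P on it were not called against saline. Among them Wipi1, a PI3P-binding protein, was the uncalled gene farthest from saline after insulin glargine. Its probe set (10392449) read 9.60, 9.51 and 9.32 after Albulin, 9.74, 9.03 and 9.32 after Insulin-Apo, 9.15, 9.02 and 8.78 after insulin glargine, and 9.49, 9.86 and 9.55 after saline. The insulin glargine arrays lay below those of saline, and the arrays of both fusion proteins overlapped with saline. The log2 fold change after insulin glargine was -0.65 ± 0.16 (SE, limma adjusted p = 0.0225), with an interval that ended at -0.29 on the side of no change, and without the third insulin glargine array it was -0.55 (limma adjusted p = 0.0628). Atg2a, Atg2b, Atg9a and Wipi2 had log2 fold changes between -0.14 and 0.09 after insulin glargine.

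In the conjugation machinery, 1 of 8 genes fell after insulin glargine and none was called after either fusion protein. The gene that fell was Atg5, which is joined to Atg12 and then works with Atg16l1 to place Atg8 proteins on the membrane. The probe set of Atg5 (10362922) read 10.37, 10.37 and 10.23 after Albulin, 10.33, 10.15 and 10.36 after Insulin-Apo, 10.10, 10.01 and 9.95 after insulin glargine, and 10.48, 10.45 and 10.50 after saline. All 9 arrays of the insulins lay below the saline arrays, those of insulin glargine farthest. The log2 fold change after insulin glargine was -0.46 ± 0.08 (SE, limma adjusted p = 0.00222), a level 0.729 times that after saline, and the call was kept without the third insulin glargine array. Its partners were not called: Atg12 had a log2 fold change of 0.07 and Atg16l1 of 0.31 (limma adjusted p = 0.0507). Atg10, the enzyme that passes Atg12 to Atg5, read 9.45, 9.32 and 8.33 after insulin glargine, against 9.48, 9.62 and 9.55 after saline. Its log2 fold change of -0.52 rested on the third insulin glargine array and was -0.17 without it, and for Atg4c, a protease that trims Atg8 proteins, the values were -0.52 and -0.23.

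Gabarapl1 was the one member of the Atg8 family that fell. Proteins of this family coat the autophagosome and bind the receptors that carry cargo. The probe set of Gabarapl1 (10542200) read 12.77, 12.76 and 12.90 after Albulin, 12.76, 12.85 and 13.07 after Insulin-Apo, 12.55, 12.75 and 12.23 after insulin glargine, and 13.21, 13.25 and 13.16 after saline. Every array of each insulin lay below every saline array. The log2 fold change was -0.70 ± 0.12 after insulin glargine (SE, limma adjusted p = 0.00241), a level 0.616 times that after saline, and without the third insulin glargine array it was -0.56 (limma adjusted p = 0.00289) and still called. After Albulin it was -0.40 ± 0.08 (limma adjusted p = 0.0240) and after Insulin-Apo -0.31 ± 0.08 (limma adjusted p = 0.0647), and B was under 0 in both. Gabarapl1 after Albulin was called when the first or the third Insulin-Apo array was left out (limma adjusted p = 0.0200 and 0.0105), and after Insulin-Apo when the third Insulin-Apo array was (limma adjusted p = 0.0156).

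No other member of the family was called. After insulin glargine Map1lc3b, which encodes the autophagosome marker LC3B, had a log2 fold change of -0.48 (limma adjusted p = 0.0292), which was not called. Its second probe set had -0.72 (limma adjusted p = 0.0919), also not called. Gabarap had -0.11, Gabarapl2 -0.17 and Map1lc3a 0.04, with limma adjusted p-values of 0.429, 0.393 and 0.899. The second probe set of Gabarapl2, dimmer at a mean of 6.94 over all arrays, had the opposite sign, at 0.24 (limma adjusted p = 0.406). Without the third insulin glargine array Map1lc3b had -0.32 (limma adjusted p = 0.0605), Gabarap -0.05, Gabarapl2 -0.02 and Map1lc3a -0.05. None of the 5 genes with a pair of probe sets, Atg2b, Map1lc3b, Gabarapl2, Bnip3 and Bnip3l, was called on either of them in any comparison.

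Nbr1 was the gene whose fall had the smallest p. Nbr1 is a receptor that binds ubiquitin-tagged cargo and Atg8 proteins and works beside Sqstm1, also called p62. Its probe set (10381419) read 11.87, 11.89 and 11.83 after Albulin, 11.80, 11.89 and 11.84 after Insulin-Apo, 11.37, 11.43 and 11.09 after insulin glargine, and 11.94, 11.99 and 11.96 after saline. The insulin glargine arrays lay below all others. Every array of both fusion proteins lay below every saline array, by less than 0.2. Their log2 fold changes were -0.10 after Albulin and -0.12 after Insulin-Apo (limma adjusted p = 0.426 and 0.327), which were not called. Nbr1 fell after insulin glargine with a log2 fold change of -0.67 ± 0.08 (SE, limma adjusted p = 0.000373), a level 0.630 times that after saline, and the call was kept in all 23 alternative analyses. Without the third insulin glargine array it was -0.56 (limma adjusted p = 0.000225). Sqstm1 had log2 fold changes of 0.16, 0.13 and 0.03 after Albulin, Insulin-Apo and insulin glargine and was not called, and neither were the mitophagy receptors Bnip3 and Bnip3l. Bnip3 had -0.29, -0.36 and -0.03 (limma adjusted p = 0.263, 0.158 and 0.931). Its arrays of both fusion proteins all lay below those of saline. The second probe set of Bnip3 had -0.35, -0.43 and -0.08 (limma adjusted p = 0.205, 0.123 and 0.825).

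The 5 genes of the lysosome itself, the membrane proteins Lamp1 and Lamp2 and the proteases Ctsb, Ctsd and Ctsl, were not called in any comparison. Their log2 fold changes lay between -0.06 and 0.12 after Albulin, between -0.08 and 0.12 after Insulin-Apo and between -0.11 and 0.07 after insulin glargine, or between -0.07 and 0.09 without the third insulin glargine array. The 95% intervals reached from -0.24 to 0.27 after Albulin, from -0.24 to 0.25 after Insulin-Apo and from -0.31 to 0.24 after insulin glargine, so larger changes lay outside them. The smallest limma adjusted p among these genes was 0.335 after Albulin, 0.367 after Insulin-Apo and 0.622 after insulin glargine. Macrophages and neutrophils are rich in lysosomes, and their markers were read on the same arrays. The summed linear level of the 11 macrophage markers lay between 18964 and 22338 after Albulin, 15685 and 23734 after Insulin-Apo, 11705 and 19791 after insulin glargine, and 14894 and 19367 after saline. Of the 9 neutrophil markers 4 rose after Albulin (S100a8, S100a9, Cxcr2 and Mmp8) and none was called after Insulin-Apo or insulin glargine, where at an unadjusted p under 0.05 limma gave 7 higher after Insulin-Apo and 1 lower after insulin glargine. Their summed level lay between 1779 and 2100 after Albulin, 1532 and 1826 after Insulin-Apo, 1052 and 1229 after insulin glargine, and 1139 and 1372 after saline. The part of these cells in the values of the 38 genes was not tested.

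The insulins were then compared with each other at the same dose and time. Between Albulin and Insulin-Apo none of the 38 genes was called, against 0.389% of all probe sets lower and 0.250% higher after Albulin. At p under 0.05 without adjustment, Albulin had 1 gene lower and 4 higher, with no share of all probe sets at that threshold beside them. The 95% intervals of 37 of the 38 genes lay within a log2 difference of 1 in either direction. Depp1 was the exception, with a difference of 0.65 and an interval that ran up to 1.20 (limma adjusted p = 0.293), and Atg14 had a difference of 0.36 (limma adjusted p = 0.137).

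Insulin glargine differed from both fusion proteins. Against Albulin 3 of the 38 genes were lower (7.89%) and 0 were higher, where 2.35% of all probe sets were lower and 2.01% higher. Against Insulin-Apo 4 were lower (10.5%) and 0 were higher, where 2.88% of all probe sets were lower and 1.96% higher. Depp1, Nbr1 and Atg14 were lower in both comparisons, and Atg13 was lower against Insulin-Apo. The median log2 difference of the 38 genes was -0.13 against Albulin and -0.09 against Insulin-Apo, and over all probe sets it was -0.01 and 0.02. With the third insulin glargine array left out, the medians of the 38 genes were -0.04 and -0.07.

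Depp1 was lower after insulin glargine by a log2 difference of -2.85 ± 0.34 against Albulin (SE, limma adjusted p = 0.000253) and of -2.19 ± 0.34 against Insulin-Apo (limma adjusted p = 0.00146). For Atg14 the differences were -1.11 ± 0.12 (limma adjusted p = 0.000112) and -0.75 ± 0.12 (limma adjusted p = 0.00148). Nbr1 differed by -0.57 ± 0.08 (limma adjusted p = 0.00100) and -0.55 ± 0.08 (limma adjusted p = 0.00124). These 3 genes kept their calls in both comparisons without the third insulin glargine array. Atg13 was lower by -0.66 ± 0.14 against Insulin-Apo (limma adjusted p = 0.00841), and that call was lost when any array other than the first and the third of insulin glargine was left out, with limma adjusted p-values up to 0.0420. Its difference of -0.48 from Albulin was not called (limma adjusted p = 0.0489), and without the third insulin glargine array it was -0.29 (limma adjusted p = 0.0796). Gabarapl1 and Atg5, which fell after insulin glargine against saline, were not called against either fusion protein. Gabarapl1 differed by -0.30 and -0.38 (limma adjusted p = 0.148 and 0.0554) and Atg5 by -0.30 and -0.26 (limma adjusted p = 0.0254 and 0.0430). Without the third insulin glargine array Gabarapl1 differed by -0.16 and -0.25 (limma adjusted p = 0.346 and 0.143). Atg5 then differed by -0.27 and -0.23 (limma adjusted p = 0.0551 and 0.0994). Among the 9 neutrophil markers 6 were lower after insulin glargine than after Albulin and 4 were lower than after Insulin-Apo. Of the 11 macrophage markers Marco and Cd68 were lower after insulin glargine than after Insulin-Apo, and none was called against Albulin. Of the 9 endothelial markers Kdr was lower than after Albulin, and Kdr and Gpr182 were lower than after Insulin-Apo. The part of these cells in the differences of the 38 genes was not tested.

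**Figure D3:**
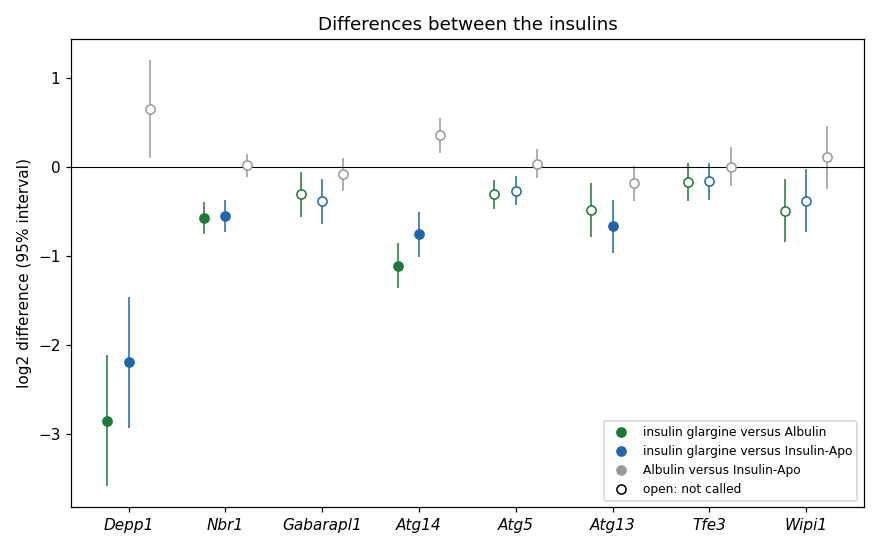
Log2 difference of 8 genes between insulin glargine and Albulin (green), insulin glargine and Insulin-Apo (blue), and Albulin and Insulin-Apo (grey), with 95% intervals from limma (n = 3 arrays per group). Filled points were called and open points were not. Depp1, Nbr1 and Atg14 have filled points in both comparisons of insulin glargine, and no grey point is filled.

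The third insulin glargine array was left out to see which genes rested on it. Of the 5 genes that fell against saline, Nbr1, Gabarapl1 and Atg5 kept their calls and Depp1 and Atg14 lost them, while 2.45% of all probe sets fell. Depp1 and Atg14 stayed at log2 fold changes of -1.79 and -0.46. No other gene of the 38 was called without that array. The log2 fold changes of 9 genes changed sign without it, none of them called: Atg13, Rb1cc1, Atg3, Map1lc3a, Bnip3, Tfeb, Lamp2, Ctsb and Ctsl.

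**Figure D4:**
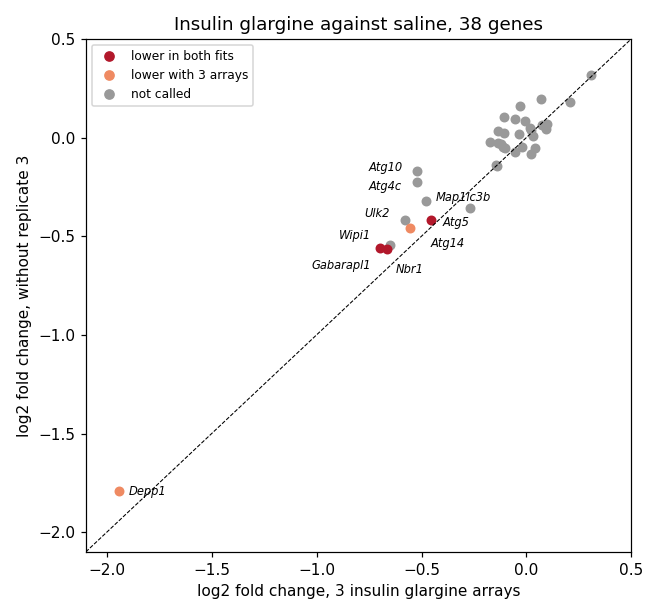
Log2 fold change of the 38 genes after insulin glargine against saline, with 3 insulin glargine arrays (horizontal axis) and without the third (vertical axis). The dashed line marks equal values. Red points fell in both fits, orange points fell with 3 arrays only and grey points were not called. Atg10 and Atg4c lie well above the line, at -0.17 and -0.23 without that array.

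Genes outside the 38 were read from lists of the same pathway. Of 22 other genes of the autophagy machinery, 1 fell and 1 rose after Albulin, 1 fell and 1 rose after Insulin-Apo, and 5 fell and 0 rose after insulin glargine. After Albulin 1.04% of all probe sets fell and 1.37% rose. After Insulin-Apo 0.804% fell and 1.34% rose, and after insulin glargine 2.60% fell and 2.24% rose. The median log2 fold change of this list after insulin glargine was -0.18, against -0.0003 over all probe sets. Without the third insulin glargine array 4 genes fell and 1 rose, and the median was again -0.18. In that fit 2.45% of all probe sets fell and 2.79% rose. Zfyve1, a PI3P-binding marker of the site where autophagosomes form, was among the listed genes that fell after insulin glargine. Its log2 fold change was -0.80 (limma adjusted p = 0.000372). The cargo receptor Calcoco1 also had -0.80 (limma adjusted p = 0.00129) and the PI3P effector Wdr45 -0.46 (limma adjusted p = 0.00315). Rubcn and Pik3r4 fell after insulin glargine as well. Without the third insulin glargine array Rubcn kept its call at -0.48 (limma adjusted p = 0.00255) and Pik3r4 lost it. Zfyve1 fell after Albulin too, at -0.60 (limma adjusted p = 0.00327), and Calcoco1 after Insulin-Apo, at -0.46 (limma adjusted p = 0.00592). Wdr45b, a relative of Wdr45, rose after Albulin by 1.10 on the log2 scale (limma adjusted p = 0.000488). Vmp1 rose after Insulin-Apo. Without the third insulin glargine array Vmp1 also rose after insulin glargine, by 0.52 on the log2 scale (limma adjusted p = 0.000849).

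Of 30 other lysosome membrane proteins and hydrolases, 26 had a probe set. The cholesterol transporter Npc1 fell after insulin glargine with a log2 fold change of -0.96 (limma adjusted p = 0.000103) and after Insulin-Apo with -0.42 (limma adjusted p = 0.0236), and the acid phosphatase Acp2 fell after insulin glargine with -0.57 (limma adjusted p = 0.000401). The protease Ctsc rose after Albulin and Insulin-Apo, by 0.46 and 0.50 (limma adjusted p = 0.00493 and 0.00473). No other gene of this list was called against saline. Of the 15 subunits of the proton pump that acidifies the lysosome 14 had a probe set, and none of them was called against saline by limma after any of the 3 insulins. At an unadjusted p under 0.05, 1 subunit was lower and 1 higher after Albulin, 0 lower and 2 higher after Insulin-Apo, and 0 lower and 3 higher after insulin glargine. Without the third insulin glargine array Atp6v0e rose after insulin glargine, where 2.79% of all probe sets rose, and Npc1 and Acp2 kept their calls. In that fit 10 subunits were higher and 0 lower at an unadjusted p under 0.05. No share of all probe sets at an unadjusted p is given beside these counts of subunits.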

How the data were processed

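Liver RNA was read on 12 Affymetrix arrays (Mouse Gene 1.0 ST), 3 per treatment, and the authors corrected background and normalized with RMA. The deposited values are log2 expression per probe set. The sources used here give neither the RMA version nor whether the 12 arrays were normalized together. Arrays hold no read depth, so their number limits the precision. RMA compresses changes of dim probe sets and leaves no zeros.

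Groups came from the labels. A probe set was kept where 2 or more arrays of a treatment exceeded 5. Linear models were fitted with limma 3.58.1 in R 4.3.3, following the study's methods: the 9 arrays of Albulin, Insulin-Apo and saline in one fit, and all 12 arrays for comparisons with insulin glargine, for which those methods state no analysis. Genes were called at B over 0 with a prior proportion of 0.01 changed, and p-values were adjusted by Benjamini-Hochberg over all probe sets kept. The scripts were tested on simulated data. Plots used matplotlib 3.10.9 (Python 3.11.15).

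Arrays were given one by one for each gene called against saline and for the uncalled gene farthest from saline in each such comparison. Other genes were given by range and count, with single values for partners or paralogues of called genes. Genes of the outside lists were named only where called. The genes of this report and the pathway and marker lists were chosen with earlier results of these arrays known. All 38 symbols matched RefSeq symbols. Alternatives were another or no filter, median centring, repeated quantile normalization, a replicate block, an intensity trend, array weights, other sets of arrays in the fit, an adjusted p as the call and each array left out.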

Additional observations from a re-analysis of the deposited data

Results flagged for a closer look

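Some differences between the insulins passed the test of the difference itself in a single fit of all 12 arrays. Against Albulin, insulin glargine gave lower values of Atg14 (log2 difference -1.11), Nbr1 (-0.57) and Depp1 (-2.85), in 3 of 3 arrays each, with every insulin glargine array below every Albulin array. Against Insulin-Apo, insulin glargine gave lower values of Atg13 (log2 difference -0.66), Atg14 (-0.75), Nbr1 (-0.55) and Depp1 (-2.19), again with no overlap between the arrays. Between Albulin and Insulin-Apo no gene of the 38 passed.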

How the results depend on the processing

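No called value changed direction under any alternative. Among the values that were not called, the signs of 9 genes after insulin glargine against saline changed without insulin glargine replicate 3. The signs of 8 genes changed there against Albulin, and of 8 against Insulin-Apo. Under the other alternatives, single values were followed only for genes called against saline and for the uncalled genes farthest from it. Leaving out Insulin-Apo replicate 2 gave a median of 0.01 after Insulin-Apo, against -0.04. With an adjusted p under 0.05 as the call, 1 gene was lower after Albulin and 8 were lower after insulin glargine. By that rule insulin glargine had 7 lower and 1 higher genes against each fusion protein. The share of all probe sets is given for these comparisons only without the third insulin glargine array. There 6 genes were lower than after Albulin and 5 lower than after Insulin-Apo, and 1 was higher in each. Of all probe sets 4.97% and 5.91% were lower. With an adjusted p under 0.05 and a log2 change of at least 0.58, 0 genes were higher after Albulin. With all 12 arrays in a fit, 1 gene was higher after Albulin and 0 after Insulin-Apo. With only the arrays of both groups, 1 gene was lower after Albulin, 3 were lower after insulin glargine and 2 were lower after insulin glargine than after Insulin-Apo. An intensity trend gave 1 gene lower after Albulin, and repeated quantile normalization gave 1 higher after Albulin than after Insulin-Apo. Leaving out an array each time gave 0 to 1 genes lower and 1 to 2 higher after Albulin, 0 to 1 lower after Insulin-Apo, 3 to 6 lower after insulin glargine (3 without saline replicate 1 or insulin glargine replicate 1 or 3), and 3 to 4 lower after insulin glargine than after Insulin-Apo. The cause of these changes was not tested.

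Same-numbered arrays did not deviate together: 2 of 18 pairs correlated above 0.1, with a range of -0.27 to 0.15, and the array of the same number was the best match in 8 of 36 cases. With a replicate block, 4 genes were lower after insulin glargine, since Atg14 lost its call at a log2 fold change of -0.56 (limma adjusted p = 0.0191), and the block changed no other count of the 38 genes.

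Atg13 after Albulin lost its call in 9 of 21 alternatives, Atg14 after insulin glargine in 15 of 23, and Atg13 against Insulin-Apo after insulin glargine in 12 of 23. Nbr1 after insulin glargine lost its call in 0 of 23, and Gabarapl1 in 1 of 23, with only the arrays of both groups (limma adjusted p = 0.0211). Wipi1 after insulin glargine was called without Insulin-Apo replicate 1 (log2 fold change -0.65, limma adjusted p = 0.00847). Precision rests on 3 arrays per group, and a gene that was not called is not shown to be unchanged.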

Other observations

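Of 26 genes of mTORC1 and its amino acid sensors, 0 were called by limma after Albulin. At an unadjusted p under 0.05, 10 were lower and 0 higher after Albulin. The counts were 7 lower and 4 higher after Insulin-Apo, and 8 lower and 5 higher after insulin glargine, with no share of all probe sets beside them. Sesn3 fell after Insulin-Apo with a log2 fold change of -0.50 (limma adjusted p = 0.00656). Deptor and Sesn3 fell after insulin glargine with -0.92 and -0.47 (limma adjusted p = 0.00855 and 0.00767). Deptor binds and restrains mTOR, and Sesn3 is a sestrin, a family of stress proteins that act on mTORC1. No gene of this list rose against saline with all arrays. Without the third insulin glargine array Deptor kept its call, Sesn3 was at -0.38 (limma adjusted p = 0.0168) and was not called, and Rragc, Lamtor3 and Fnip1 rose after insulin glargine. Among 12 genes that insulin is known to repress in liver through FoxO, or that encode FoxO factors, Foxo3 fell after Albulin and Insulin-Apo, with log2 fold changes of -0.45 and -0.41 (limma adjusted p = 0.00779 and 0.0150). Sesn3, which both lists hold, was the only other gene of the FoxO list that fell. Foxo1 rose after insulin glargine with a log2 fold change of 0.95 (limma adjusted p = 0.00895), and without the third insulin glargine array it was 0.97 (limma adjusted p = 0.0158) and not called.

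Of the 11 macrophage markers Marco rose after Insulin-Apo with a log2 fold change of 0.93 (limma adjusted p = 0.0239), and none was called after Albulin or insulin glargine. None of the 9 markers of sinusoidal endothelium was called against saline by limma, and at an unadjusted p under 0.05 there were 4 higher after Albulin, 3 higher after Insulin-Apo, and 2 lower and 2 higher after insulin glargine.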
